A study of Mus musculus with 4 samples.

Results

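Gene expression in Ly6C-low hepatic macrophages was compared between livers of mice labelled as mPGES-1 knockout (KO) and wild-type (WT) livers, with 1 array on each side. Genes entered by level: of 22180 genes with a probe set of their own, the 4444 with a log2 level of 6 or more in the brighter of the 2 arrays were used. The macrophages came from 10 WT and 10 mPGES-1 knockout mice of the C57/BL6 strain, 48 h after blood flow was restored to an ischaemic liver. They were sorted into Ly6C-hi and Ly6C-low cells, Ly6C being a surface antigen that newly recruited monocytes carry in large amounts and that their macrophage descendants lose. Each combination of genotype and Ly6C level has 1 Affymetrix Mouse Gene 2.0 ST array, so the series holds 4 arrays, all of them after reperfusion. Whether RNA of several mice was pooled on an array, and in which cells the gene was deleted, the sources do not say. With 1 array a group there is no replicate check, no p-value is given, and every difference below is a size that compares 2 arrays, labelled KO minus WT on the log2 scale. Their precision is limited by the number of arrays.

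mPGES-1, encoded by Ptges, is the inducible terminal synthase that converts prostaglandin H2, the product of the cyclooxygenases, into prostaglandin E2, a lipid mediator of inflammation. After reperfusion injury, resident Kupffer cells and recruited monocytes share the liver with the sinusoidal endothelium, a fenestrated lining that itself carries scavenger receptors, Fc receptors and lectins found on macrophages. Macrophages that clear dead cells and lipid take on a lysosome-rich state marked by Gpnmb, Trem2 and Fabp5.

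The label and the sort were checked first. Ptges (probe set 17383712) read 5.69 on the WT Ly6C-low array and 6.20 on its KO-labelled counterpart, so it was not lower under the KO label, which goes against that label. The sources do not say which exons were removed or which of them this probe set reads, and probes outside the removed stretch would check nothing. Every genotype below is therefore the label of an array. Ly6c2, which encodes the sorted antigen, read 3.84 on the WT Ly6C-low array and 4.33 on the KO-labelled one, against 7.70 and 8.94 in the Ly6C-hi arrays. The macrophage genes that define the labelled cell type were present on both Ly6C-low arrays. The F4/80 gene Adgre1 read 8.53 in WT and 8.04 under the KO label, the growth factor receptor gene Csf1r read 8.46 and 8.70, and the lysozyme gene Lyz2 read 9.30 and 9.11. All 20 macrophage markers reached log2 6, and none differed 2-fold (a log2 difference of 1) in either direction. Their differences ran from -0.98 for Cd68 to 0.83 for Mertk, with a median of -0.25.

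Transcripts of other liver cells were present on the same arrays. The albumin gene Alb read 10.94 on both, and the sinusoidal endothelial lectin gene Clec4g read 10.63 in WT and 11.46 under the KO label. Averaged over every measured member, 25 sinusoidal endothelial markers had a mean level of 7.69 in WT and 9.07 under the KO label, 17 hepatocyte markers had 7.10 and 6.81, and 20 neutrophil markers had 5.20 and 4.82. The 12 B cell markers averaged 4.69 and 5.28, the 15 Kupffer cell markers 6.18 and 5.84, and the 20 macrophage markers 8.53 and 8.27. The endothelial mean was higher under the KO label and the macrophage, Kupffer cell, neutrophil and hepatocyte means were lower. In a sorted bulk sample, fewer cells of a type and less RNA per cell cannot be told apart. No marker of cholangiocytes (6 measured) or erythroid cells (3 measured) reached log2 6.

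Under the KO label far more genes were 2-fold or more higher than lower in Ly6C-low cells. Of the 4444 genes, 306 (6.89%) read 2-fold or more above WT and 36 (0.81%) read 2-fold or more below it. The median gene was itself 0.15 higher, and with each array centred on it the counts were 228 (5.13%) and 75 (1.69%), so the share of lower genes depends on this scaling. Removing a lowess curve of the difference on mean level gave 190 and 102. Without the level floor, 431 of 22180 genes (1.94%) were higher and 165 (0.744%) lower. A difference of 4-fold or more was reached by 29 genes on the higher side and by none on the lower side. Most genes were close to the median: 71.9% lay within 0.5 of it, and the central range from the 5th to the 95th percentile was -0.59 to 1.16.

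Many of the larger differences rest on a dim reading on the other array. As a guide to background, the upper end of the central 95% of 1409 olfactory, vomeronasal and trace amine-associated receptor genes was 5.97 on WT Ly6C-low and 5.54 on the array labelled KO, and their median difference was -0.15. The central 95% of their differences ran from -1.17 to 0.57. A 2-fold lower reading of a dim gene is therefore within the range of these background genes. Of the 306 higher genes, 175 were below that guide in WT, so their fold is uncertain, and 128 read at least 6 on both arrays. Among the 36 lower genes, 13 were below the guide under the KO label and 18 read at least 6 on both. At the floor itself Tsc1 (5.33 in WT, 6.0001 with the KO label) and Dek (5.97 and 6.0003) were just inside, and Plgrkt (5.83 and 5.9998) and Kcna3 (5.9983 and 5.87) just outside.

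The only measure of error that the 2 arrays hold is the agreement of probe sets of the same gene, which covers probe error and not the spread between mice. For 84 genes with a second probe set at the floor, the gap between their differences had an SD of 0.53 and a robust SD of 0.22. It was over 0.5 in 14 genes and over 1 in 4. The robust SD of the difference over all 4444 genes was 0.44. A gene difference below about that size is not separated here from the bulk of genes.

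**Figure D1:**
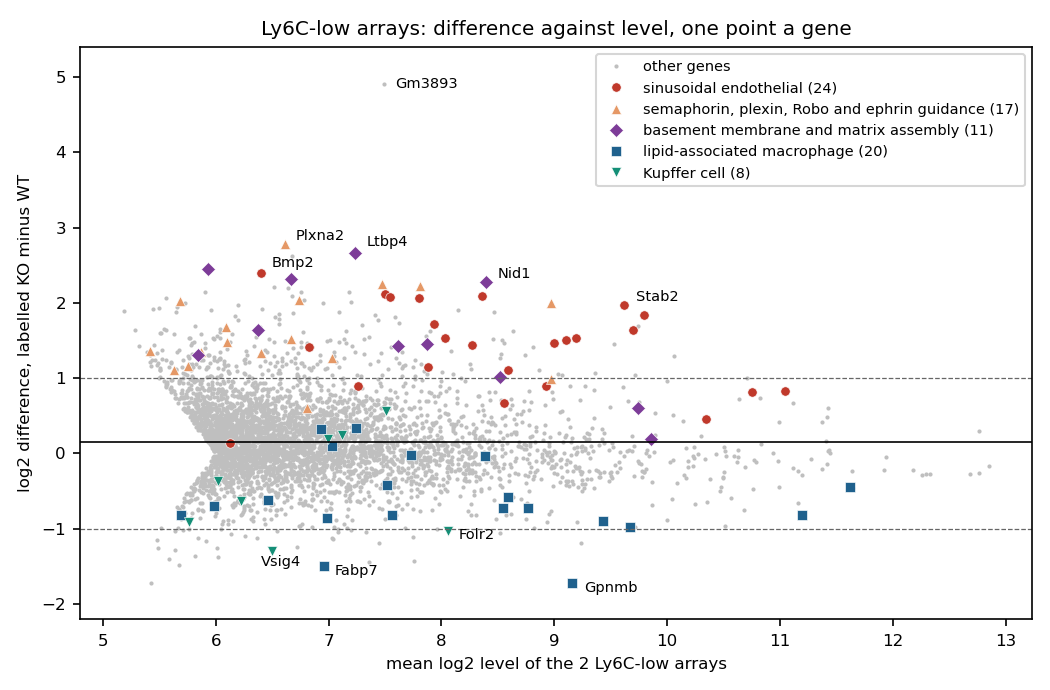
Log2 difference between the 2 Ly6C-low arrays (labelled KO minus WT, vertical axis) against their mean log2 level (horizontal axis), 1 point a gene, for 4444 genes. Dashed lines mark 2-fold and the solid line marks the median gene at 0.15. Sinusoidal endothelial, guidance and basement membrane genes lie above the median gene except Gata4, which is level with it, while most lipid-associated macrophage genes lie below it.

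The largest difference of all belonged to Gm3893, a predicted gene outside the naming rule that is named because of its value. It read 5.04 on the WT Ly6C-low array and 9.95 on the KO-labelled one, a difference of 4.91, and 4.45 and 6.08 in the Ly6C-hi arrays. It was the only gene at least 2-fold higher under the KO label in both fractions, 0.327% of the 306 higher genes. In Ly6C-hi, 103 of the 4410 genes at the floor (2.34%) were that much higher, and genes below the floor there could not count. Among genes with an established name, the 25 largest higher differences ran from 2.01 to 2.78 and the 25 largest lower ones from -1.001 to -1.72. Predicted genes, small RNAs, chemosensory receptors and similar symbols were left out of this ranking, 10 of them higher and 11 lower, 6 of the 11 being chemosensory receptors. The 25 lower genes are therefore every 2-fold lower gene at the floor with an established name.

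Receptors, ligands and matrix proteins of blood vessels led the higher side. The semaphorin receptor gene Plxna2 (probe set 17220974) read 5.22 in WT and 8.002 under the KO label. Ltbp4, which holds latent TGF-beta in the matrix, read 5.90 and 8.56, and the collagen IV cross-linking peroxidase gene Pxdn read 4.70 and 7.15. WT lay within the background guide for these 3 genes, so no fold is given for them. Higher levels on both arrays were found for the basement membrane gene Nid1 (7.26 and 9.53), the endothelial roundabout receptor gene Robo4 (6.35 and 8.60) and the semaphorin receptor gene Plxnd1 (6.69 and 8.92).

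Other genes among these 25 have varied roles. The integrin alpha 1 gene Itga1, a collagen receptor chain, read 6.10 in WT and 8.25 under the KO label. Crim1, a membrane protein that binds BMPs, read 6.75 and 8.83, and the trophoblast glycoprotein-like gene Tpbgl read 6.19 and 8.21. The calcium pump gene Atp2b4 read 5.68 and 7.83, the aminopeptidase A gene Enpep 5.76 and 7.80, the latrophilin gene Adgrl2 5.54 and 7.74, and the GABA-B receptor gene Gabbr1 4.52 and 6.59. All 4 were below 6 in WT. For 3 of the 25 a second probe set gave another answer: Npr1, the receptor for atrial natriuretic peptide, differed by 2.62 in its brighter probe set and by -0.34 in the other, Ccdc80 by 2.15 and -0.26, and the atypical cadherin gene Fat4 by 2.21 and 0.00. Nid1 kept its side, at 2.27 and 1.69.

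**Figure D2:**
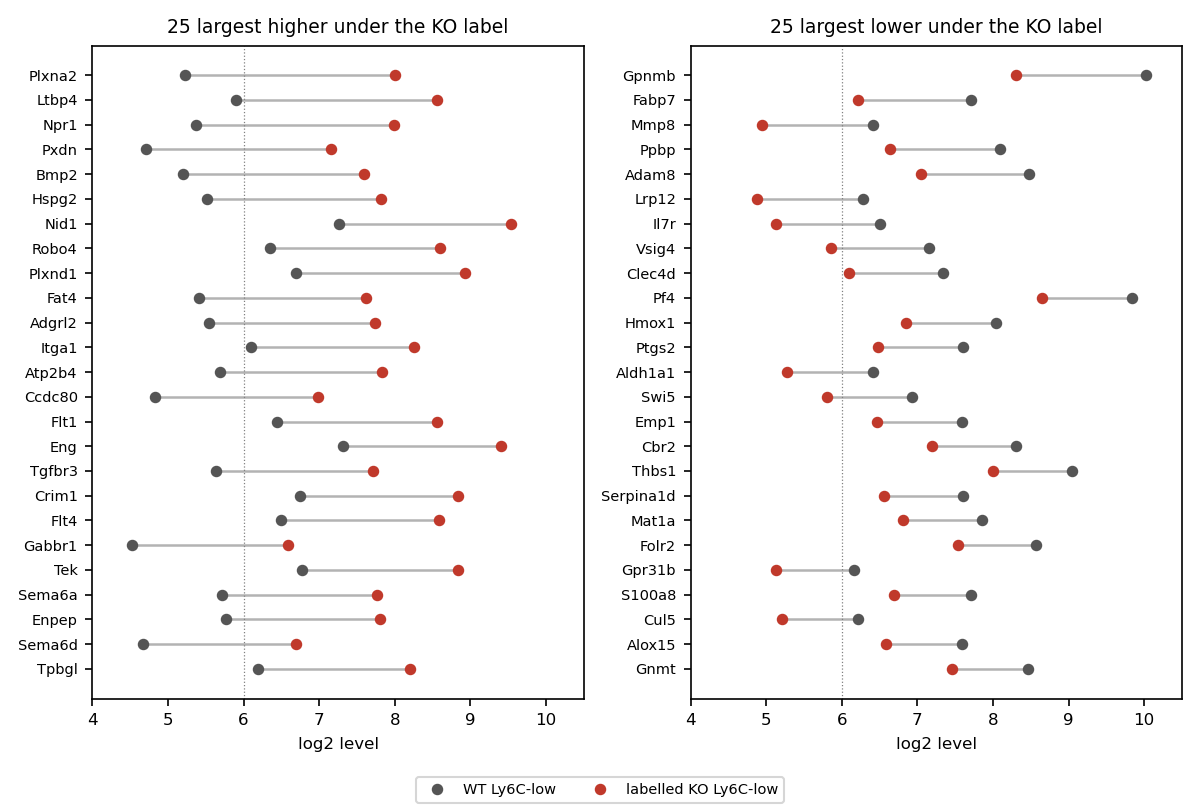
Log2 levels on the WT (grey) and labelled KO (red) Ly6C-low arrays for the 25 named genes with the largest difference each way, ordered by size; the dotted line marks the level floor of 6. Many of the higher genes start below the floor in WT, as Plxna2 does at 5.22, while Gpnmb at 10.02 and Pf4 at 9.84 lead the lower genes in WT level.

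Sinusoidal endothelial genes were higher under the KO label as a group. Of 25 measured, 24 reached the floor, 23 of them on both arrays, and 17 were at least 2-fold higher and none lower, where 6.89% of all genes were that much higher. Their median difference was 1.49, or 1.33 relative to the median gene, and over all 25 measured it was 1.47. The hyaluronan scavenger receptor gene Stab2 read 8.64 in WT and 10.61 under the KO label, the receptor phosphatase gene Ptprb read 8.88 and 10.72, and the liver endothelial gene Oit3 read 7.08 and 8.79. Cdh5, which encodes VE-cadherin of endothelial junctions, read 8.35 and 9.86, and the coagulation factor gene F8 read 8.27 and 9.74. The members differed among themselves: Lyve1, a hyaluronan receptor, differed by 0.67, the inhibitory Fc receptor gene Fcgr2b by 0.46 and Gata4, a transcription factor of sinusoidal identity, by 0.14. The Wnt ligand gene Wnt2 stayed below the floor (4.48 and 5.32). Of the 306 higher genes, 56 (18.3%) lie on this list or those of other endothelium, vascular growth factors, guidance, basement membrane or endothelial junctions. The same lists hold 84 (1.89%) of all 4444 genes. Their members that reached the floor on the KO-labelled array alone had to read higher. The lists were also chosen with earlier results of these data known, so these shares are a description and not a test.

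Genes of arterial, venous and other endothelium gave a thinner record. Of 16 measured, 7 reached the floor and 1 did so on both arrays, so the rest had to differ to enter. Gja4, an arterial gap junction gene and the 1 bright on both, read 6.40 and 7.70. The Notch ligand gene Dll4 read 4.73 and 6.73 and the ephrin gene Efnb2 read 5.20 and 6.54. Over all 16 measured the median difference was 0.58, and von Willebrand factor (Vwf, 4.30 and 4.84), the lymphatic regulator Prox1 (3.23 and 3.50) and the arterial connexin gene Gja5 (3.87 and 3.87) were below the floor.

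Promoter sequences of genes that stood apart in this comparison show what lies upstream of them. The windows are the 250 bases before the gene start in RefSeq, build GRCm38.p6, and the motif of ETS family factors, which many endothelial promoters carry, was searched as CAGGAAG or its reverse complement CTTCCTG. It was present in 12.1% of 27025 genes with a promoter window, in 12.7% of 3513 measured genes, in 42 of 228 of the higher genes (18.4%) and in 4 of 28 of the lower genes (14.3%). Among 15 sinusoidal endothelial genes with a window, 2 held it (13.3%), close to the share of measured genes. The 3 windows that follow, of Robo4 (chr9:37401722-37401971, plus strand), the adhesion receptor gene Adgrf5 (chr17:43360181-43360430, plus strand) and the secreted endothelial factor gene Egfl7 (chr2:26580833-26581082, plus strand), were picked because they hold it, and capitals mark the matches.
Robo4: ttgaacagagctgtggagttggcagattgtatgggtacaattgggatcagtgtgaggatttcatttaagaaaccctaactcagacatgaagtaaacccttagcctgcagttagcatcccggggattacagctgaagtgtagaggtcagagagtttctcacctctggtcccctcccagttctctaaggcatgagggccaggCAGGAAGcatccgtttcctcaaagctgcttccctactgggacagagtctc
Adgrf5: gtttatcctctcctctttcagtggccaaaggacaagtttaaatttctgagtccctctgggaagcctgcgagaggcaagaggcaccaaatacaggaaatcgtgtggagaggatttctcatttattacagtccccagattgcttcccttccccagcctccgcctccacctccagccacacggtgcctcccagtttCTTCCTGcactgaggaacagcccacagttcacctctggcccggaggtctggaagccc
Egfl7: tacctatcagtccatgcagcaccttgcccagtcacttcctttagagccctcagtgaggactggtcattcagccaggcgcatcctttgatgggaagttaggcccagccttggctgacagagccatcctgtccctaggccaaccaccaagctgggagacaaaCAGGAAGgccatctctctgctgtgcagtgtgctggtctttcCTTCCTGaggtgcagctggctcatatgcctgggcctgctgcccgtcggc
For genes lower under the KO label, the TATA box was searched as TATAAA or TTTATA and was present in 14.3% of all genes with a window, 8.45% of measured genes, 22 of 228 of the higher genes (9.65%) and 6 of 28 of the lower genes (21.4%). The platelet chemokine gene Ppbp (chr5:90768268-90768517, plus strand) and the calprotectin gene S100a8 (chr3:90668821-90669070, plus strand), both among the lower genes, hold it at the places in capitals. The S100a8 window also holds the ETS letters CTTCCTG, left in small letters here.
Ppbp: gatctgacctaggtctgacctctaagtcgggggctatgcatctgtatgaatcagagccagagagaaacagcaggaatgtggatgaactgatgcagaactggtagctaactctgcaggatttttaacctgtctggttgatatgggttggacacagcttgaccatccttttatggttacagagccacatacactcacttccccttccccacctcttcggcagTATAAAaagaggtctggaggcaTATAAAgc
S100a8: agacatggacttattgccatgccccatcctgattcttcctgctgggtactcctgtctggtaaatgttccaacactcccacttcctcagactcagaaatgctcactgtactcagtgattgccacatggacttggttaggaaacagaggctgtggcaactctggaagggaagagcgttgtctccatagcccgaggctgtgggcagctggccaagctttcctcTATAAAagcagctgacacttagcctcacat
A match is a run of letters and not a measured binding site, and windows were matched for 79.1% of the 4444 genes.

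Receptors of the vascular growth factors were higher, and the VEGF ligand genes that could be measured were not. The sinusoidal endothelial markers move with each vascular list that follows, and their part in it was not tested. Each count of 2-fold higher members stands against 6.89% of all genes, and members that reached the floor on the KO-labelled array alone had to read higher. The VEGF receptor genes Flt1 (6.44 in WT, 8.56 under the KO label), Kdr (8.88 and 10.52) and Flt4 (6.50 and 8.58) differed by 2.12, 1.64 and 2.08. The angiopoietin receptor gene Tek read 6.77 and 8.84 and its partner Tie1 read 6.12 and 7.53. The neuropilin co-receptor genes Nrp1 (8.48 and 9.47) and Nrp2 (6.40 and 7.67) were higher by 0.995, just short of 2-fold, and 1.27. Among ligand genes Vegfa read 7.31 and 6.80, Vegfb 6.32 and 6.25, while Vegfc (5.11 and 5.80), Vegfd, Pgf, Angpt1 and Angpt2 lay below the floor. The adrenomedullin receptor gene Calcrl (7.14 and 8.39) was 2-fold higher and its ligand gene Adm (5.06 and 6.50) was too, from a dim WT reading. The sphingosine phosphate receptor gene S1pr1 (6.87 and 7.60) and the endothelin receptor gene Ednrb (6.83 and 6.25) did not reach 2-fold. On this list of 25, 15 reached the floor, 14 of them on both arrays, 9 were 2-fold higher and none lower, with a median of 1.27, and the median of all 25 was 0.73.

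TGF-beta and BMP genes followed at the level of ligands, co-receptors and inhibitors. Sinusoidal endothelium is the main source of BMP2 and BMP6, which set hepcidin production in hepatocytes. Bmp2 read 5.20 in WT and 7.60 with the KO label, and Bmp6 read 5.62 and 6.93. The co-receptor genes Eng (endoglin, 7.31 and 9.40) and Tgfbr3 (betaglycan, 5.63 and 7.72) differed by 2.09 each. Tgfb1 itself read 6.66 and 7.97, and the inhibitory Smad7 read 5.46 and 6.68. The signalling receptor genes stood lower in the order of differences: Bmpr2 (9.17 and 10.05) differed by 0.89 and Tgfbr2 (5.94 and 6.73) by 0.80. Targets of BMP signalling were close to level, with Id1 at 6.13 and 6.04, Id2 at 7.02 and 6.89 and Id3 at 7.23 and 7.80. Of 33 measured, 13 reached the floor and 6 did so on both arrays, 7 were 2-fold higher and none lower, with a median of 1.23 against 0.35 over all 33.

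Notch and Wnt genes were fewer. Dll4 and its receptor gene Notch1 (6.15 and 7.56) were 2-fold higher, Notch4 (5.34 and 6.33) came to 0.98, and the targets Hey1 (5.18 and 5.50) and Hes1 (4.65 and 4.76) were below the floor. The Notch list had 6 of 17 members at the floor, 3 on both arrays, and 2 of them 2-fold higher, and the median of all 17 was 0.20. The Wnt receptor gene Fzd4 read 5.63 and 7.48, the co-receptor gene Lrp5 read 6.50 and 7.77, and Adgra2, a co-receptor for Wnt7 ligands, read 5.50 and 6.66. The paralogous co-receptor gene Lrp6 read 7.22 and 7.74, and the R-spondin gene Rspo3 was below the floor (5.30 and 5.82). On the Wnt list 5 of 22 reached the floor, 3 on both arrays and 3 of the 5 2-fold higher, with a median of 0.30 over all 22.

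Guidance genes of the semaphorin, plexin, Robo and ephrin families, first known from axons and also active in vessel growth, were 2-fold higher in 15 of the 36 members measured. Of these 36 measured, 17 reached the floor, 6 of them on both arrays, and none was 2-fold lower. The other 11 entered through the KO-labelled array alone and so had to read higher. The median was 1.48 (1.32 centred) over those 17 and 0.67 over all 36. Plxnc1, the receptor for semaphorin 7A, read 7.97 in WT and 9.97 under the KO label, while its ligand gene Sema7a was below the floor (5.82 and 5.52). The class 6 semaphorin genes Sema6a (5.72 and 7.76), Sema6d (4.67 and 6.69) and Sema6b (5.25 and 6.93) were higher, as were the class A plexin genes Plxna2 and Plxna4 (4.73 and 6.10), whose products bind semaphorin 6A. The venous receptor gene Ephb4 (5.74 and 7.07) and its arterial ligand gene Efnb2 were both higher, by 1.33 and 1.35. Sema3e, the ligand gene of Plxnd1, read 2.61 on both arrays, far below the floor. Most of these genes were below 6 in WT, so the fold is less certain here than for the sinusoidal list.

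Of 31 basement membrane and matrix genes, 11 reached the floor, 6 of them on both arrays and 5 through the KO-labelled array alone, which had to read higher. Perlecan (Hspg2), a heparan sulfate proteoglycan, read 5.51 in WT and 7.82 with the KO label, and the laminin alpha 4 gene Lama4 read 5.56 and 7.20. The vascular matrix genes Mmrn2 (7.15 and 8.60) and Tinagl1 (6.90 and 8.33) were above 6 on both arrays, as was Sparc (8.01 and 9.02), which encodes a collagen-binding matrix glycoprotein. Bgn (biglycan) differed by 0.60 and Fn1 (fibronectin) by 0.20. The collagen IV genes Col4a1 (5.72 and 5.95) and Col4a2 (4.87 and 5.30), which form the network itself, stayed below the floor. The median of the 11 was 1.45, with 9 at 2-fold or more, against a median of 0.28 over all 31. Fibroblast collagen genes were not part of this: Col1a1 (5.32 and 5.45), Col1a2 (4.41 and 4.36) and Col3a1 (5.48 and 5.29) were below the floor. The 4 stellate and fibroblast genes that reached it read lower, Dcn at 7.58 and 6.74 among them.

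Junction genes and endothelial transcription factors were graded. Claudin 5 (Cldn5) read 7.87 in WT and 9.19 under the KO label, Pecam1 read 8.04 and 9.14, Jam2 read 7.14 and 8.16, and the zonula occludens gene Tjp1 read 6.19 and 7.25. Of the transcription factors, Meis2 (6.55 and 8.32), Elk3 (6.56 and 7.91) and Ets1 (6.31 and 7.54) were 2-fold higher. The ETS factors Erg (7.73 and 7.85) and Fli1 (7.84 and 8.09), which endothelium uses, differed by 0.12 and 0.25, close to the median gene. The caveolin gene Cav1 read 4.34 on both arrays. All 24 members of this list at the floor (of 34 measured, 16 on both arrays) read higher, 12 of them 2-fold or more, with a median of 0.96 and 0.81 over all 34. Heg1, a junction receptor, differed by 1.54 in its brighter probe set and by -0.07 in the other.

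Adhesion G protein-coupled receptors and cadherins had 10 of 16 members at the floor, 5 of them on both arrays. Of the 10, 9 were at least 2-fold higher, where 6.89% of all genes were, and the median over all 16 was 1.35. The endothelial receptors Adgrl4 (7.27 and 8.80) and Adgrf5 (8.43 and 9.96) each differed by 1.53, and Adgrg3 read 6.38 and 7.90. The exception was the macrophage gene Adgre1, at -0.50. Among scavenger receptor genes, Stab2, Stab1 (7.66 and 8.85) and the mannose receptor gene Mrc1 (8.50 and 9.56), all abundant on sinusoidal endothelium, were at least 2-fold higher. Stab1 and Mrc1 are also known from macrophages. Of the others known from macrophages, Msr1 read 8.37 and 8.38, Cd36 9.85 and 9.56, and the oxidised LDL receptor gene Olr1 7.31 and 6.79. The list had 14 of 17 members at the floor on both arrays, 3 of them 2-fold higher, and a median of 0.62.

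**Figure D3:**
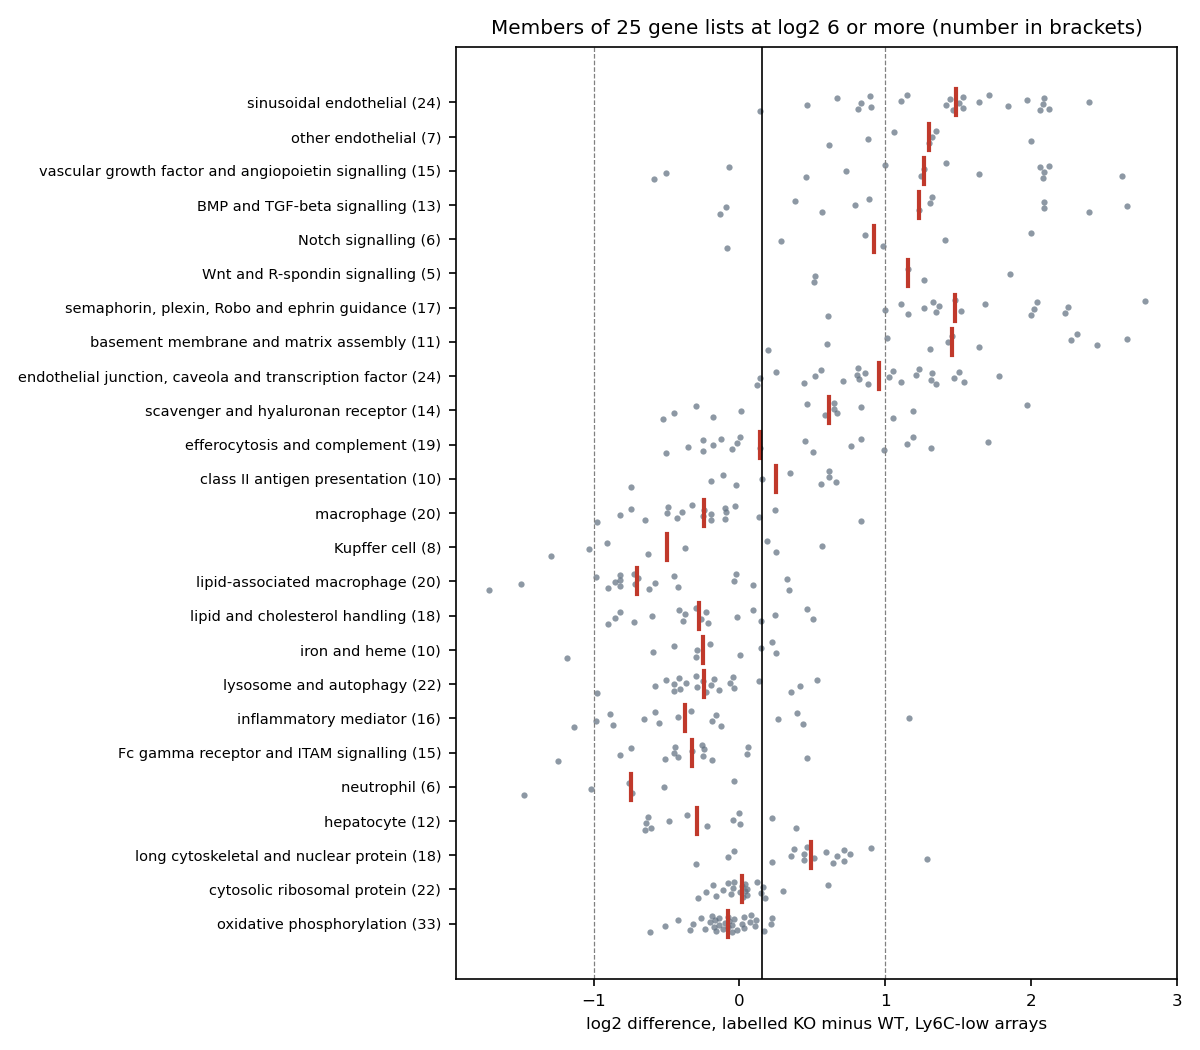
Log2 difference (labelled KO minus WT, Ly6C-low arrays, horizontal axis) of every member at log2 6 or more in 25 gene lists (rows, number of such members in brackets); red bars are list medians, dashed lines mark 2-fold and the solid line the median gene. Endothelial, vascular growth factor, BMP, Notch, Wnt, guidance and matrix lists have medians from 0.92 (Notch) to 1.49. Members at the floor on the KO-labelled array alone had to read higher. Over all measured members the Notch median is 0.20 and the matrix median 0.28. The lipid-associated macrophage genes at -0.71 and the 6 neutrophil genes at -0.75 stand lowest. Lists share genes, such as Eng in 3 of them.

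The genes of these vascular lists are often long, and the difference between the arrays moved with gene length. Over 4440 genes split into 10 bins by genomic span, the distance from gene start to gene end, the median difference was -0.16 in the bin of the shortest genes (57 to 3206 bases) and 0.47 in the bin of the longest (over 112898 bases). Across genes, which are not replicates, Pearson's r with log10 span was 0.33 and Spearman's rho 0.34. Counts of 2-fold higher genes went from 14 in the first bin to 70 in the last, and of lower genes from 16 to 1. In the Ly6C-hi arrays the same bins ran the other way, from -0.03 to -0.53. Genomic span includes introns and is not the length of the RNA.

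Taking out the median of each span bin left the vascular lists on the higher side with smaller medians. Sinusoidal endothelial genes stood at 1.24, guidance genes at 1.41, basement membrane genes at 1.28 and vascular growth factor genes at 0.87. Over all genes that step left 204 (4.59%) higher and 50 (1.13%) lower by 2-fold. A list of long genes of the cytoskeleton and nucleus, fixed as a guide to length and not to cell type, had a median of 0.49 (18 of 27 at the floor) that came to 0.17. Within it the histone methyltransferase gene Kmt2d read 5.34 and 6.63 and the spectraplakin gene Macf1 read 7.21 and 8.11. Within the 24 sinusoidal endothelial genes, Spearman's rho between the difference and span was 0.33, close to that over all genes. Among the shorter of them, Bmp2 in the third bin differed by 2.40, and Gpr182 in the first read 7.55 and 8.99. The part of RNA length or quality in these differences was not tested beyond these values, and neither was the part of the number of endothelial cells in the sort.

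**Figure D4:**
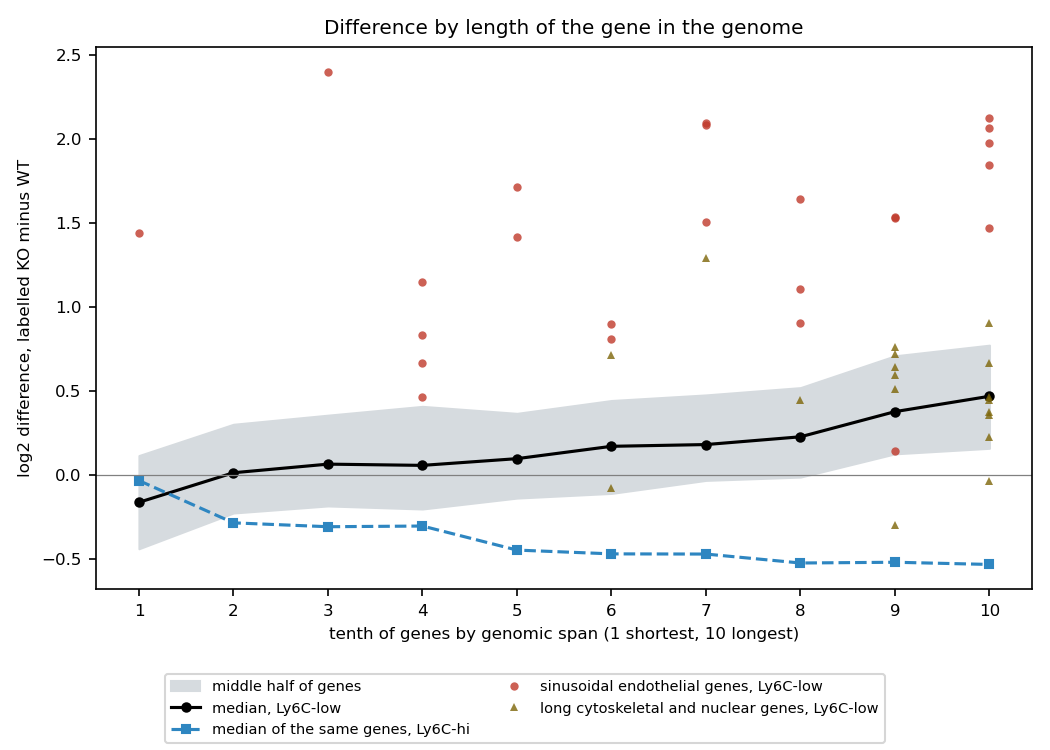
Median log2 difference (labelled KO minus WT, vertical axis) in 10 bins of genes by genomic span (horizontal axis, 444 genes a bin): black for Ly6C-low with the middle 50% of genes in grey, blue for the same genes in Ly6C-hi, and triangles for the long cytoskeletal and nuclear genes. The black line climbs from -0.16 to 0.47, and the red points of sinusoidal endothelial genes, apart from Gata4 in bin 9, lie above the grey band at their own span.

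Genes of the lysosome-rich, lipid-associated macrophage state were lower under the KO label. Of 22 measured, 20 reached the floor, 18 on both arrays, and 17 of the 20 read lower, 2 of them by 2-fold or more, where 0.81% of all genes were that much lower. The median was -0.71, or -0.86 relative to the median gene, by which 5 members passed 2-fold, and -0.72 over all 22. Gpnmb, a lysosomal glycoprotein of phagocytes, read 10.02 in WT and 8.30 under the KO label, 3.29-fold lower. This was the largest lower difference of any named gene at the floor. The fatty acid binding protein genes Fabp7 (7.70 and 6.21) and Fabp5 (11.60 and 10.79) were lower by different amounts. The lipid sensor gene Trem2 read 7.97 and 7.15, the tetraspanin gene Cd63 10.16 and 9.18, the lipid droplet gene Plin2 9.88 and 8.98, and lipoprotein lipase (Lpl) 7.41 and 6.56. Atp6v0d2, a proton pump subunit of this state, was below the floor at 5.93 and 3.99, with WT within the background guide. Some members were level: Apoe read 6.98 and 7.08, Cd9 7.75 and 7.72, and Ctsl 8.41 and 8.37.

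Related lists gave smaller values of the same sign. Of 22 lysosome and autophagy genes at the floor, 18 read lower, none by 2-fold, with a median of -0.24. The macrosialin gene Cd68 (10.20 and 9.22) and the protease gene Ctsd (8.88 and 8.30) were the lowest, and the membrane protein genes Lamp1 (8.76 and 8.69) and Lamp2 (9.38 and 9.51) were near level. Lipid and cholesterol genes had 13 of 18 reading lower and none at 2-fold, with a median of -0.28, and the cholesterol exporter gene Abca1 read 7.77 and 7.56. Iron genes had a median of -0.25. In that list heme oxygenase 1 (Hmox1), which breaks down heme, read 8.04 and 6.85, while the iron exporter gene Slc40a1 read 6.99 and 7.25.

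Kupffer cell identity genes were few and mixed. Of 15 measured, 8 reached the floor and 4 did so on both arrays. The complement receptor gene Vsig4 read 7.15 in WT and 5.85 with the KO label, and the folate receptor gene Folr2 read 8.57 and 7.54. The Kupffer cell lectin gene Clec4f read 6.54 and 5.91, and Cd5l read 6.22 and 5.31. Timd4, Marco and Cd163 were below the floor on both arrays. The median of the 8 was -0.50 and of all 15 it was -0.37. That direction depends on the floor: it was 0.19 over 5 genes at a floor of log2 7 and 0.22 over the 4 genes at 6 on both arrays. The genes left are Slc40a1, Il18bp, Id3, Folr2 and, at 7 only, Vsig4, and endothelium also expresses Id3.

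Of 26 inflammatory mediator genes, 16 reached the floor and 12 of them read lower, with 1 at 2-fold on each side and a median of -0.38. Relative to the median gene, 4 were 2-fold lower and 1 higher, where 1.69% and 5.13% of all genes were, with a median of -0.53. Interleukin 1 beta (Il1b) read 9.31 in WT and 8.33 under the KO label, the chemokine gene Ccl2 read 7.51 and 6.62, and Tnf read 7.47 and 7.28. The interferon-gamma-induced chemokine gene Cxcl9 was the 1 on the higher side, at 5.60 and 6.76. Alternative activation genes had no common direction, with 6 of 14 at the floor reading higher and 8 lower: Arg1 read 10.21 and 9.52, Igf1 7.94 and 7.07, Retnla 8.69 and 8.35, and Mrc1, as above, was higher.

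Among genes of prostanoid metabolism, cyclooxygenase 2 (Ptgs2), which feeds mPGES-1, read 7.61 in WT and 6.47 under the KO label, 2.19-fold lower. The prostaglandin transporter gene Slco2a1, also an endothelial gene, read 7.53 and 9.40. The prostaglandin-degrading dehydrogenase gene Hpgd read 8.04 and 8.16, the phospholipase gene Pla2g4a 6.88 and 6.34, and the lipoxygenase gene Alox15 7.59 and 6.58. Of the prostaglandin E2 receptor genes, Ptger4 read 5.43 and 5.55 and Ptger2 5.06 and 4.59, both below the floor, as was Ptger3. The other E synthase genes Ptges2 and Ptges3 were also below it. In all, 12 of 28 members reached the floor, with a median of -0.20. Of the 12, 1 was higher and 2 were lower by 2-fold, where 6.89% and 0.81% of all genes were.

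Of 20 neutrophil genes, 6 reached the floor, 4 of them on both arrays, and all 6 read lower. Those at the floor on the WT array alone, Mmp8 among them, had to read lower. The median was -0.75 over the 6 and -0.44 over all 20. The collagenase gene Mmp8 read 6.42 and 4.94, the calprotectin genes S100a8 and S100a9 read 7.71 and 6.69, and 7.36 and 6.60, and Csf3r read 7.04 and 7.004. Cxcr2 (4.33 and 3.72) and Ly6g (4.31 and 4.01) were at background. Of 9 platelet genes, 3 reached the floor. The platelet chemokine genes Ppbp (8.09 and 6.64) and Pf4 (9.84 and 8.64) were both 2-fold lower, where 0.81% of all genes were. The platelet receptor gene Clec1b, shared with sinusoidal endothelium, went the other way (8.69 and 9.58), and the platelet integrin gene Itga2b was below the floor.

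Fc receptor and ITAM genes read lower in 12 of 15 members at the floor, with a median of -0.32. Clec4d, a C-type lectin receptor, read 7.34 in WT and 6.10 under the KO label, Trem1 6.25 and 5.51, and the activating Fc receptor gene Fcgr4 7.84 and 7.40. The inhibitory Fcgr2b, an endothelial gene in liver, was on the higher side. Among proteases and their inhibitors, the vascular genes Adamts1 (5.63 and 7.06) and Timp3 (6.98 and 8.33) were 2-fold higher, and the leukocyte genes Mmp8 and Adam8 (8.47 and 7.05) 2-fold lower. These were of 13 at the floor with a median of -0.15, where 6.89% of all genes were 2-fold higher and 0.81% lower. Among coagulation genes, Pros1 (6.26 and 7.58), Tfpi (6.83 and 8.05), the thrombin receptor gene F2r (7.08 and 8.24) and thrombomodulin (Thbd, 5.88 and 6.94) were higher with F8, while thrombospondin 1 (Thbs1, 9.05 and 7.996) was lower. That list had 15 of 22 at the floor and a median of -0.14.

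Efferocytosis receptors and bridges did not all behave alike. The complement regulator gene Cd55 read 6.44 in WT and 8.15 under the KO label, the bridging protein gene Mfge8 read 5.01 and 6.16, Gas6 read 6.28 and 7.04 and its receptor gene Mertk 8.36 and 9.20. The complement genes C1qa (8.94 and 8.93), C1qb (9.68 and 9.43) and C1qc (6.78 and 6.43) were level or lower. Of 19 at the floor, 4 were 2-fold higher and none lower, where 6.89% and 0.81% of all genes were. The median of 0.14 was close to the 0.15 of the median gene. No class II antigen presentation gene reached 2-fold, and 6 of 10 at the floor read higher and 4 lower: H2-Ab1 read 10.78 and 11.45, H2-Eb1 9.18 and 9.80, and H2-Aa 9.44 and 10.05, while the costimulatory gene Cd80 read 7.40 and 6.65. The median of the 10 at the floor was 0.25, or 0.10 centred.

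Lymphoid and dendritic cell markers gave a few bright genes. The immunoglobulin M gene Ighm read 7.78 and 9.29, but its other probe sets differed by -0.67 to 0.99, and the B cell receptor chain gene Cd79b read 4.72 and 6.06. Of 12 B cell genes 3 reached the floor, and the median of all 12 was 0.49. The dendritic cell list held Kit (7.09 and 8.72) and Dpp4 (7.89 and 9.15) at 2-fold higher, both also expressed by other cells, while the defining genes Zbtb46 (4.94 and 5.67), Flt3 (4.61 and 5.14) and Xcr1 (4.67 and 4.89) were below the floor. No T cell receptor chain gene on the T cell list reached it, with Cd3e at 4.84 and 4.88, and the 1 member that did, the interleukin 7 receptor gene Il7r (6.50 and 5.14), is expressed by some myeloid cells as well. Several hepatocyte enzyme genes were among the 25 lower genes: Mat1a read 7.85 and 6.82, Gnmt 8.46 and 7.46, and the antitrypsin gene Serpina1d 7.60 and 6.56. On the hepatocyte list itself none of the 12 at the floor differed 2-fold, with a median of -0.29. How far the number of these cells in the sort bears on the differences was not tested.

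The same genes were then read in the Ly6C-hi arrays, which share no array with this comparison. There, the KO-labelled array read 2-fold or more above WT for 103 of 4410 genes (2.34%) and below it for 910 (20.6%), with the median gene at -0.53. Centred on that gene, the counts were 267 (6.05%) and 285 (6.46%), so the excess of lower genes depends on this scaling. Vascular genes were mostly below the floor there. Of 25 sinusoidal endothelial genes, 3 reached the floor in Ly6C-hi, where Stab2 read 5.24 in WT and 4.63 with the KO label and Kdr 5.60 and 5.22. Guidance genes at the floor in Ly6C-hi numbered 8, with none 2-fold higher and 4 lower, Plxnc1 (7.46 and 5.69) among them, which in Ly6C-low was 2.003 higher. These are not the same genes as the 17 at the floor in Ly6C-low: those 17 had a median of 0.13 in Ly6C-hi, or 0.67 relative to the median gene there, where 10 of them read higher and most were dim.

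Of the 36 genes lower in Ly6C-low, 13 (36.1%) were also 2-fold lower in Ly6C-hi, which is 1.43% of the longer list there, against a background of 20.6% of genes lower in Ly6C-hi. Gpnmb read 9.44 and 7.07 in Ly6C-hi, Ptgs2 10.85 and 7.26, Clec4d 10.36 and 7.71, and Adam8 9.03 and 7.23. The other 9 are Mmp8, Ppbp, Il7r, Pf4, Cbr2, Thbs1, S100a8, Alox15 and Gnmt, all of them named above except the carbonyl reductase gene Cbr2 (8.30 and 7.19 in Ly6C-low). Among all genes at the floor in Ly6C-hi 20.6% were 2-fold lower, and genes below that floor could not count. Of the 306 genes higher in Ly6C-low, 25 (8.17%) were that much lower in Ly6C-hi. They include, chosen after their values were seen, the transcription factor gene Cebpd, at 1.62 in Ly6C-low and -1.35 in Ly6C-hi, and Adgrg3, at 1.52 and -2.002. The 8 genes lower in Ly6C-low and higher in Ly6C-hi are all olfactory or vomeronasal receptors or predicted genes. The lipid-associated list had a median of -0.89 in Ly6C-hi and -0.71 in Ly6C-low, or -0.35 and -0.86 relative to each median gene. Inflammatory mediators stood at -1.72 and -0.38, or -1.19 and -0.53 centred. These medians cover the members at the floor in each fraction, which are not the same genes. Over the members at the floor in Ly6C-low, the lipid-associated median in Ly6C-hi was -0.85, or -0.32 centred. That of inflammatory mediators was -1.63, or -1.10 centred. Whether any of these differs between the fractions was not tested, since 1 array a group leaves no spread.

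**Figure D5:**
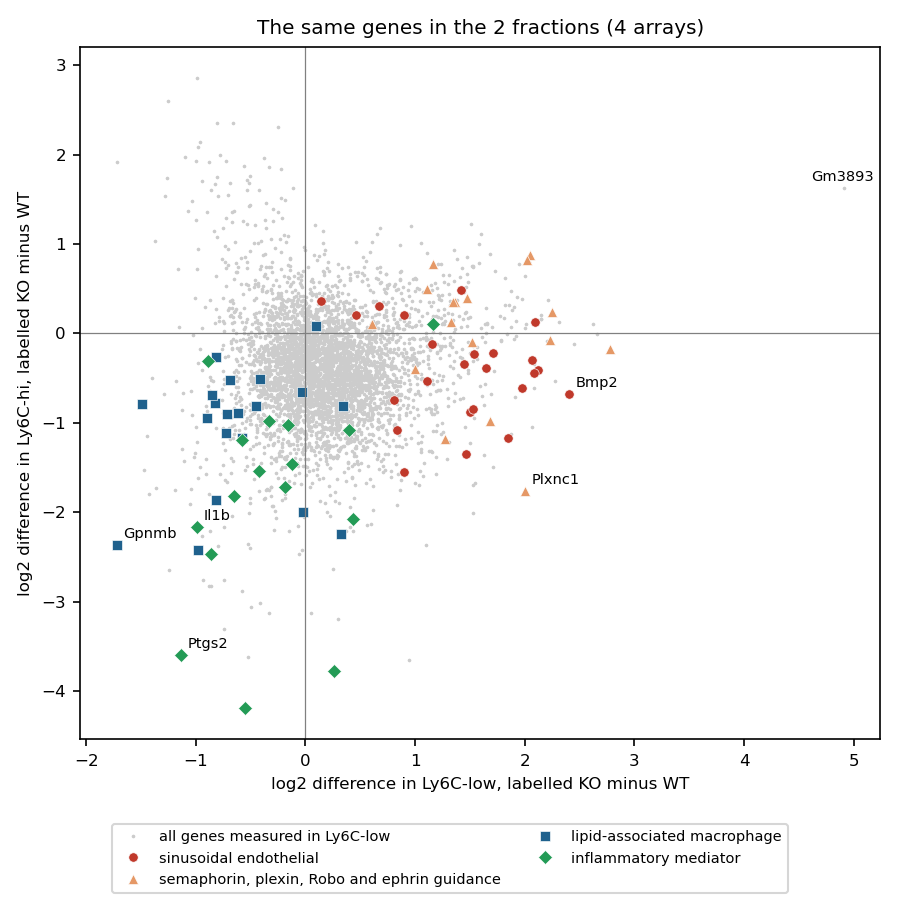
Log2 difference under the KO label in Ly6C-hi (vertical axis) against that in Ly6C-low (horizontal axis) for the 4444 genes at the floor in Ly6C-low, with 4 gene lists marked. Sinusoidal endothelial and guidance genes lie to the right; on the vertical axis 6 of 24 endothelial and 10 of 17 guidance genes are above 0, none by 2-fold (Bmp2 lies at 2.40 and -0.67), while Gpnmb, Ptgs2 and Il1b lie at the lower left.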

How the data were processed

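Per the labels, RNA of sorted hepatic macrophages was isolated with TRIzol, and biotinylated single-stranded DNA was made from 5 ng with the WT Pico kit. The log2 values deposited by the authors come from a gene-level RMA summary in Expression Console, per the labels, and the sources give neither software versions nor the build behind the array annotation. RMA summarises the probes of a probe set after background correction and quantile normalisation, which removes differences in total RNA between arrays. The platform annotation pairs 23521 of 41345 probe sets with 1 gene symbol and 1814 with several, and lists none for 16010. Entrez IDs matched RefSeq (GRCm38.p6) for 23328 of these and 193 kept their annotated symbol. They gave 22180 genes, 1082 with several probe sets, for which the brightest by 4-array mean was used.

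Differences are labelled KO minus WT of the deposited values, counted at 2-fold (log2 difference of 1) among genes at log2 6 or more in the brighter array. No test was made. The counting steps were tested on simulated data. Named genes are Ptges and Ly6c2, the 25 largest differences each way, up to 6 members of each of 51 lists by size, and ligand-receptor partners and defining markers; others, and further list members, were chosen after their values were seen. The members and lists were chosen with earlier results of these data known. Listed genes without a probe set of their own are not analysed here. Protein length was not analysed for want of a protein table here, so gene span replaced it, and a check of promoter GC content was void because 79.1% of genes matched, under the 80% required. Other scalings, level floors and probe set rules were tried. Python 3.11.15, numpy 2.4.6, pandas 2.3.3, statsmodels 0.14.6 and matplotlib 3.10.9 were used.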

Additional observations from a re-analysis of the deposited data

Results flagged for a closer look

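Some data outside the comparison also differed between the Ly6C-low arrays. Probe sets with several gene symbols, which cannot be given to a gene, were 2-fold or more higher under the KO label in 23 cases and lower in 53, of 470 at log2 6 or more. Probe sets with no symbol listed were higher in 202 cases and lower in 116, of 2505. Guidance genes of the semaphorin, plexin, Robo and ephrin families differed in sign between the fractions only where each fraction had its own set of genes at the level floor: relative to the median gene, the median was 1.32 over 17 genes in Ly6C-low and -0.48 over 8 genes in Ly6C-hi. The 17 genes of Ly6C-low had a median of 0.67 in Ly6C-hi relative to the median gene there, the same sign as in Ly6C-low, and 0.13 as deposited. This difference was not tested, since each group has 1 array.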

How the results depend on the processing

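No paired analysis was possible because each group has 1 array and the labels carry no replicate numbers, and for the same reason no array could be left out. The count of higher genes moved from 306 to 190 with lowess, 176 at a floor of log2 7 and 128 at log2 6 on both arrays. The count of lower genes moved from 36 to 75 with centred arrays, 55 with quantile normalisation, 102 with lowess, 80 at a floor of log2 5, 19 at log2 7, 165 with no floor and 18 at log2 6 on both arrays. The Kupffer cell median turned from -0.50 to 0.19 at a floor of log2 7 and 0.22 at log2 6 on both arrays, where fewer genes remain. Guidance genes moved from 1.48 to 1.18 with lowess, 1.76 at log2 7 and 0.67 with no floor. Basement membrane genes moved from 1.45 to 1.21 at log2 5, 0.28 with no floor and 1.22 at log2 6 on both arrays. Sinusoidal endothelial genes moved from 1.49 to 1.24 with the median of each gene span bin removed, an alternative chosen after seeing the data in place of protein length, which was not run. Apart from the floors, whose sets hold other genes, the cause was not tested. Over all list medians and alternatives, 385 values moved by less than 0.22, the robust SD between probe sets of a gene. Another 63 moved by more, and the 2 Kupffer cell values above were classed as turned. Small medians also changed sign with centring without being classed so. Examples are interferon response genes (0.15 to -0.006) and non-classical monocyte genes (0.11 to -0.04). None of the 50 named largest differences changed sign under any of the 10 alternatives that kept the gene. Of the 50, 23 dropped out at log2 6 on both arrays and 10 at a floor of log2 7. Signal near background limits genes that reach the floor on 1 array alone, and the lack of replicates limits every value.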

Other observations

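Genes that every cell uses were close to level between the Ly6C-low arrays. Of 22 ribosomal protein genes at the floor none differed 2-fold, and their median was 0.02 as deposited and -0.13 relative to the median gene. Short mitochondrial and housekeeping genes had a median of -0.13 over 11 genes. Of 33 oxidative phosphorylation genes none differed 2-fold either (median -0.08), nor did any of 30 proteasome genes (median -0.12). Interferon response genes stood at 0.15 over 11 genes, oxidative burst genes at -0.15 over 8, and recruited monocyte genes at -0.04 over 11, with the C-C chemokine receptor gene Ccr2 at 7.48 in WT and 7.78 under the KO label. Non-classical monocyte genes had a median of 0.11, and the fractalkine receptor gene Cx3cr1 read 7.58 and 7.78. Chemokine receptor genes had 5 members at the floor, with Cxcr4 at 9.08 and 8.40.

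Stress and growth genes showed single differences. Of 21 immediate early genes, the transcription factor gene Jun (9.20 and 10.23) was the 1 at 2-fold, where 6.89% of all genes were 2-fold higher. The list median was 0.06, or -0.10 relative to the median gene, by which none was 2-fold higher and 1 was 2-fold lower. The hypoxia and glycolysis list had a median of -0.05, with the glucose transporter gene Slc2a1 at 7.42 and 6.87 and the stress gene Ndrg1 at 7.58 and 8.39. Among integrin genes, Itga9 (6.46 and 7.68) was 2-fold higher beside Itga1, while the leukocyte integrin genes Itgb2 (7.36 and 7.38) and Itgam (8.13 and 8.04) were level. Of 23 cell cycle genes 6 reached the floor, and the proliferation gene Mki67 was below it at 5.78 and 5.43. Natural killer cell and plasmacytoid dendritic cell lists had 1 and 2 members at the floor, with Ncr1 at 4.16 and 4.12 and Siglech at 3.95 and 3.87. On the granulocyte list of eosinophils, basophils and mast cells, 2 of 11 reached it, Hdc (6.08 and 6.38) and Gata2 (5.12 and 6.001).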
